A study of Mus musculus with 6 samples.

Results

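The genes described here are NRF2 itself (Nfe2l2), its classic oxidative stress targets and the genes of glutathione supply and use: Nqo1, Hmox1, Gclc, Gclm, Slc7a11, Gsr, Gpx4, Txnrd1 and Srxn1. They were chosen by name, for what they are known to do, with earlier results of these data known. A locus of the deposited expression table was taken as a member where its mm10 position overlapped the gene's annotated span by at least 0.5 of their union. By this rule 8 of the 10 genes were placed, on 9 of the 32357 entries of the table, and all 9 had been tested by the authors. Txnrd1 has 2 of these entries, at 1 position. Each entry counts as 1 locus in the shares given below. Nqo1 and Gpx4 have no value here. Nqo1 (chr8:107388225-107403206) lies inside a merged locus of 302.4 kb on which 6 entries of the table share 1 position, and Gpx4 (chr10:80047166-80056439) inside a merged locus of 672.3 kb shared by 52 entries, so that none of these entries could be tied to either gene.

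The RNA came from primary cultures of Balb/c mouse cortex, dissected from E14.5 embryos, nucleofected at plating with an shRNA plasmid of the pSuperneoGFP backbone and collected after 4 days in vitro by the labels. A non-silencing shRNA was used for 2 libraries, shNeurod2-1 for 2 and shNeurod2-2 for 2. All 6 libraries thus came from cultures that received a plasmid, and the labels do not say whether libraries of one shRNA came from separate cultures. The table gives 1 FPKM value (fragments per kilobase of transcript, scaled to library size) for the non-silencing libraries together and 1 for the 4 knockdown libraries together, so no spread between libraries and no effect of a single shRNA can be given, no test was possible, and the depth behind each value is unknown. Where a gene is given with a pair of values, the non-silencing one stands first.

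NRF2 is a transcription factor that KEAP1 holds at a low level by handing it to a CUL3 ubiquitin ligase. When electrophiles or oxidants modify KEAP1, NRF2 builds up, pairs with a small MAF protein and binds antioxidant response elements near genes for detoxification, glutathione and thioredoxin. Glutathione, the main small thiol of the cell, is made from glutamate, cysteine and glycine. Cysteine supply often limits it, and SLC7A11 brings cysteine in as its oxidised dimer cystine. Cultured neurons have little NRF2 activity, and astrocytes are known to support them with glutathione precursors. SLC7A11 is a shared target: ATF4, the factor of the amino acid response, also drives it.

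The targeted gene was read first. Neurod2 (chr11:98325417-98329645), the neuronal transcription factor that the shRNAs target, was at 104.8 FPKM in the non-silencing value and at 60.3 FPKM with knockdown, 1.74-fold lower. In bulk RNA, fewer cells of a type and less RNA per cell cannot be told apart. Over the 13367 tested loci with both values above 0, the median log2 ratio of knockdown to non-silencing was -0.03, and 90% of loci lay between -0.37 and 0.34.

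The non-silencing and knockdown values of the members lay close together, with 1 exception. Slc7a11, the cystine importer, was 1.48-fold lower in the knockdown value. The other 7 placed members differed by less than 1.2-fold in either direction, from a log2 ratio of -0.25 for Txnrd1 to 0.12 for Gclm. Past 1.5-fold, 0 of 8 members were lower and 0 higher, against 2.43% and 2.07% of the tested loci. The study used this fold together with a cut on the false discovery rate, which was not applied here. Past 1.2-fold, 1 was lower and 0 higher, against 8.92% and 7.23% of tested loci. The median log2 ratio of the members was 0.02, which turned to -0.17 when members with restored cells were left out, 3 of 8 were below 0, and 57.8% of all tested loci were below 0. A count of 1 in 8 is close to the share of the background, so the counts say nothing particular of the members.

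**Figure D1:**
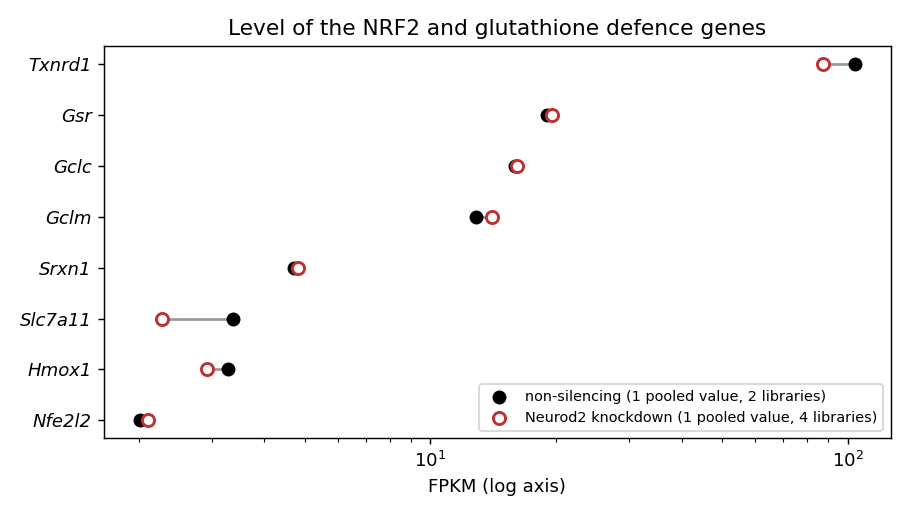
FPKM on a log axis of the 8 placed members, with a filled point for the pooled value of the 2 non-silencing libraries and an open point for that of the 4 knockdown libraries; there are no error bars, since the table holds 1 value per condition. Txnrd1 stands highest at 104.1 and 87.3 FPKM, Nfe2l2 lowest at 2.01 and 2.11, and on this axis the gap between the points is widest for Slc7a11.

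Nfe2l2 (chr2:75675519-75704641, minus strand, 5 exons) encodes NRF2. Its transcript was low, at 2.01 FPKM in the non-silencing value and 2.11 with knockdown, a log2 ratio of 0.07. Of the tested loci, 14.3% had a mean FPKM at or below that of Nfe2l2. The NRF2 protein is controlled mostly after transcription, so this value is of its RNA only. A small nuclear RNA gene, Gm24996, is annotated inside the locus.

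Most of the genes that control NRF2 had a higher FPKM than Nfe2l2, and their values were also close in both conditions. Keap1, the sensor, was at 22.2 FPKM in the non-silencing value and 20.7 with knockdown. Bach1, a repressor that competes with NRF2 for its elements, was at 22.5 and 21.5 FPKM. The 3 genes of highest FPKM on this list were Sqstm1, an autophagy receptor that binds KEAP1, at 105.5 and 94.4 FPKM, Rbx1, the RING subunit of the ligase, at 77.3 and 74.7 FPKM, and Gsk3b, a kinase that marks NRF2 for degradation, at 69.1 and 68.6 FPKM. All 11 listed control genes were placed. None passed 1.5-fold, and the median log2 ratio was -0.05. Past 1.2-fold, 1 was lower and 0 higher, against 8.92% and 7.23% of tested loci. The 1 gene past 1.2-fold was Maff, a small MAF partner, named after its values were seen, which was at 2.54 FPKM and 1.70 FPKM.

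Hmox1 (chr8:75093618-75100593, plus strand, 5 exons) encodes haem oxygenase 1, which breaks down haem. It was at 3.28 FPKM in the non-silencing value and 2.91 with knockdown, a log2 ratio of -0.17. It is repressed by BACH1 as well as induced by NRF2, and it was low in both conditions. Its locus holds no other annotated gene.

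Glutathione synthesis starts with glutamate-cysteine ligase, an enzyme of a catalytic and a modifier subunit. Gclc (chr9:77754535-77794489, plus strand, 16 exons), the catalytic subunit, was at 15.95 FPKM and 16.13 FPKM in the non-silencing and knockdown values, a log2 ratio of 0.02. Gclm (chr3:122245557-122267215, plus strand, 7 exons), the modifier, was at 12.89 and 14.03 FPKM, a log2 ratio of 0.12 and the highest among the members. The 2 subunits were thus at like levels in each condition. The antisense transcript Gm17494 and the pseudogene Gm6061 overlap the Gclm locus, and no source used here states if counting was by strand.

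Slc7a11 (chr3:50364936-50443613, minus strand, 12 exons) encodes the light chain of the cystine-glutamate exchanger. It was at 3.36 FPKM in the non-silencing value and at 2.27 FPKM with knockdown, a log2 ratio of -0.57. This was the lowest ratio among the members, and 2.61% of tested loci were at or below it. It lay just inside the 1.5-fold line, which is at 0.58 on the log2 scale. Over the 1683 tested loci with a mean FPKM within 1.5-fold of that of Slc7a11, 90% of log2 ratios were between -0.41 and 0.40, so that of Slc7a11 lay outside this range, and 2.20% were at or below it. The locus was placed by the RefSeq span of the gene, with an overlap share of 0.586. The GENCODE span reaches much farther past the 3′ end and gave a share of 0.143, so the value of Slc7a11 rests on the choice of annotation. Another annotated gene, Gm37498, overlaps the locus.

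The promoter of Slc7a11 is shown because the gene is shared by NRF2 and ATF4 control. In the RefSeq promoter table (GRCm38.p6, 250 bases before to 50 after each start site) it holds TGATGNAA, the letters of the composite element that ATF4 binds with C/EBP partners, at 2 places, once on each strand. The stretch from 120 bases before the start to the start (chr3:50443614-50443733, minus strand) reads 5′ to 3′ as follows, with both matches in capitals:
Slc7a11: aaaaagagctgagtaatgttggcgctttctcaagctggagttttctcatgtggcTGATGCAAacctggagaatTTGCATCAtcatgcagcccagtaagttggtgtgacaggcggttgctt
The same letters stand in 4.51% of the 27025 genes of the promoter table, in 1 of the 7 members with a promoter there, and in 4 of 12 genes of a list of ATF4 amino acid response genes (Asns, Pck2, Slc1a4 and Trib3). Chac1 also has a match, as does the neuron marker Tubb3, which was at 838.9 and 878.7 FPKM and so not lower. This motif was chosen after the value of Slc7a11 had been seen, and a match is not a bound site.

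Because of the shared control, Slc7a11 was set beside that ATF4 list. Of 14 placed genes, 14 were lower past 1.2-fold and 9 past 1.5-fold, against 8.92% and 2.43% of tested loci. On this list 0 were higher past either fold. The median log2 ratio was -0.63, near that of Slc7a11. Atf4 itself was at 193.3 FPKM and 150.3 FPKM. The genes past 1.5-fold were the asparagine synthetase Asns (131.6 and 86.2 FPKM), the pseudokinase Trib3 (1.97 and 0.971 FPKM), the stress protein Sesn2 (17.7 and 10.1 FPKM), the mTORC1 inhibitor Ddit4 (63.9 and 40.9 FPKM), the large neutral amino acid carrier Slc7a5 (78.7 and 49.0 FPKM), the cationic amino acid carrier Slc7a3 (31.8 and 15.1 FPKM), the mitochondrial one-carbon enzyme Shmt2 (37.2 and 24.2 FPKM), mitochondrial Pck2 (9.23 and 4.32 FPKM) and the translation repressor Eif4ebp1 (23.1 and 11.2 FPKM). Psat1, of serine synthesis, was at 114.8 and 81.7 FPKM. The members of this list were known to be lower in these data when it was drawn up, so its counts are a description. Whether ATF4 has a part in the value of Slc7a11 was not tested.

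The other glutathione genes Slc3a2 and Chac1 were read beside Slc7a11, and both were lower. Slc3a2, the heavy chain that SLC7A11 and SLC7A5 both need at the membrane, was at 83.5 FPKM in the non-silencing value and at 67.6 FPKM with knockdown, 1.24-fold lower. Chac1, which cleaves glutathione and is itself an ATF4 target, was at 30.8 and 15.8 FPKM, 1.95-fold lower. Of 16 other glutathione genes placed, 2 were lower past 1.2-fold, namely these, 1 was lower past 1.5-fold, and 1 was higher past 1.2-fold, namely the peroxidase Gpx7 (1.22 and 1.78 FPKM), named after its values were seen. The median log2 ratio was -0.02. Over all tested loci, 8.92% were lower and 7.23% higher past 1.2-fold, and 2.43% were lower past 1.5-fold. The glyoxalase Glo1, at 135.6 and 133.3 FPKM, and the microsomal transferase Mgst3, at 84.4 and 87.3 FPKM, were the other genes of high FPKM.

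Astrocytes are a known site of Slc7a11 in cortical cultures, so their markers were read beside it. Of 8 listed astrocyte markers, 7 were tested. Of these, 1 was lower past 1.5-fold and 2 past 1.2-fold, against 2.43% and 8.92% of tested loci. The median log2 ratio of the 7 was -0.03. The summed level of all 8 was 262.3 FPKM in the non-silencing value and 247.1 with knockdown. The 1 past 1.5-fold was Gfap, at 57.4 and 35.1 FPKM. Slc1a3, the highest astrocyte marker, was at 87.5 and 90.4 FPKM. Whether a change in astrocytes has a part in the value of Slc7a11 was not tested.

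Gsr (chr8:33653238-33698162, plus strand, 13 exons) encodes glutathione reductase, which turns oxidised glutathione back to its reduced form. It was at 18.98 FPKM and 19.55 FPKM, a log2 ratio of 0.04. A small nucleolar RNA gene, Gm24727, lies in its locus. The lipid peroxide reductase Gpx4, the other member of glutathione use, has no value here.

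Txnrd1 (chr10:82833951-82897724, plus strand, 14 exons) encodes the cytosolic thioredoxin reductase. It was the most abundant member, at 104.1 FPKM in the non-silencing value and 87.3 FPKM with knockdown, a log2 ratio of -0.25 and 1.19-fold lower, just under the 1.2-fold line. Of the tested loci, 94.1% had a mean FPKM at or below its own. A second entry of the table stands at the same position, at 0.742 FPKM and 0.894 FPKM, 1.21-fold higher. The entries thus went opposite ways, and the protein-coding gene Eid3 and the noncoding genes Gm38560 and Gm47073 overlap the locus. Which transcript the second entry holds was not tested, and the entry with the higher FPKM stands for Txnrd1 in every count.

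Srxn1 (chr2:152105524-152111376, plus strand, 2 exons) encodes sulfiredoxin, which repairs overoxidised peroxiredoxins. It was at 4.71 FPKM and 4.82 FPKM, a log2 ratio of 0.03. Among 12 other thioredoxin, peroxiredoxin and dismutase genes, none was lower or higher past 1.2-fold, against 8.92% and 7.23% of tested loci. The median log2 ratio was -0.08. The 3 of highest FPKM were the peroxiredoxin Prdx2 (500.3 and 474.5 FPKM), mitochondrial Prdx5 (106.0 and 93.7 FPKM) and the superoxide dismutase Sod1 (95.5 and 90.4 FPKM).

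**Figure D2:**
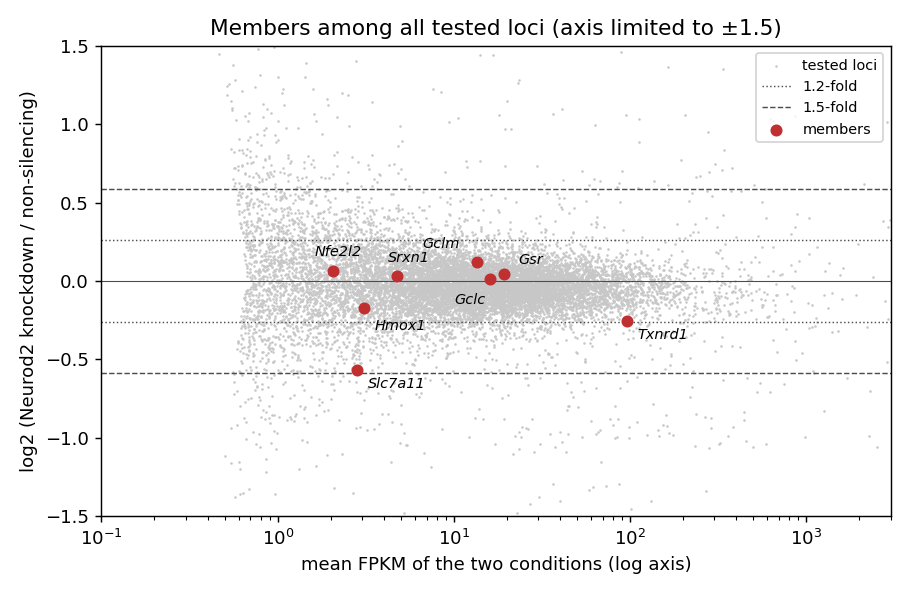
Log2 ratio of knockdown to non-silencing FPKM against the mean FPKM of both conditions (log axis) for tested loci (grey) and the 8 placed members (red), with lines at 1.2-fold and 1.5-fold; loci beyond 1.5 on the log2 axis are not drawn. Slc7a11 lies near the lower 1.5-fold line at a mean of 2.82 FPKM, Txnrd1 near the lower 1.2-fold line at a mean of 95.7 FPKM, and the other 6 lie between the 1.2-fold lines.

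Of 17 other NRF2 targets placed, 1 was lower past 1.5-fold and 0 were higher, against 2.43% and 2.07% of tested loci. Past 1.2-fold, 1 was lower and 1 higher, against 8.92% and 7.23% of tested loci. The median log2 ratio of the 17 was 0.02. The locus lower past 1.5-fold was that of Tkt, the transketolase of the pentose phosphate pathway, at 593.7 FPKM in the non-silencing value and 114.7 with knockdown. A small RNA gene is annotated inside it. Whether the small RNA has a part in this value was not tested. Ephx1, the microsomal epoxide hydrolase, named after its values were seen, was the 1 gene higher past 1.2-fold, at 2.37 and 3.31 FPKM. The ferritin light chain Ftl1 (197.5 and 182.3 FPKM) and thioredoxin Txn1 (110.6 and 111.3 FPKM) were the most abundant after Tkt.

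Loss of cystine import can end in ferroptosis, a death by iron and lipid peroxides, so genes of that pathway were counted. Of 5 placed, none passed 1.5-fold, and the median log2 ratio was 0.20. Past 1.2-fold, 0 were lower and 1 was higher, against 8.92% and 7.23% of tested loci. The transferrin receptor Tfrc was at 57.0 FPKM in the non-silencing value and 73.2 FPKM with knockdown, 1.29-fold higher. The acyl-CoA synthetase Acsl4 was at 21.8 and 25.2 FPKM, and the lysophospholipid acyltransferase Lpcat3 at 55.8 and 50.2 FPKM.

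**Figure D3:**
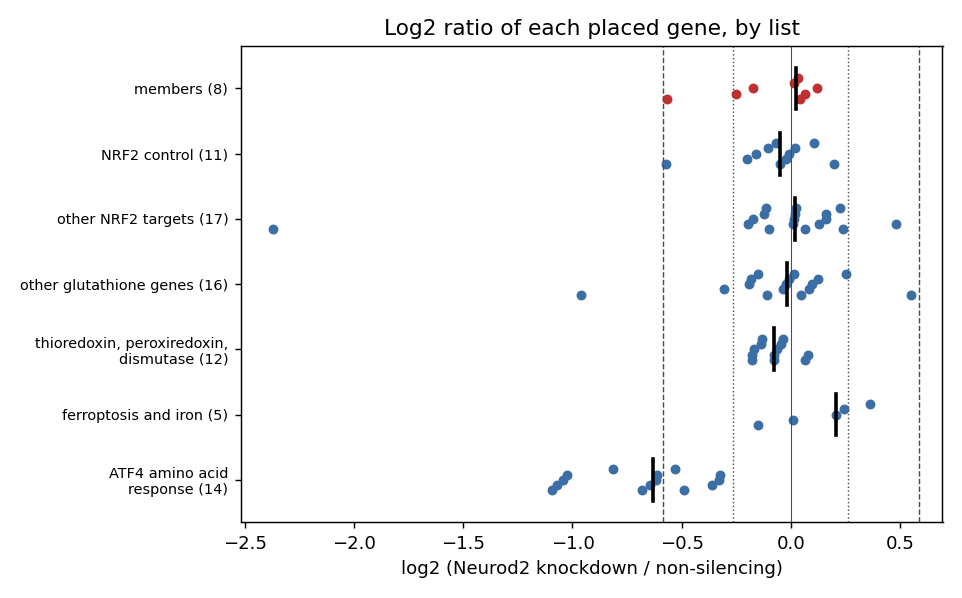
Log2 ratio of knockdown to non-silencing FPKM for each placed gene of the members and of 6 related lists (number placed in brackets), with a black bar at the median of each list and lines at 1.2-fold (dotted) and 1.5-fold (dashed). The medians of the members, the NRF2 control genes, the other NRF2 targets and the other glutathione genes lie between -0.05 and 0.02. Those of the thioredoxin, peroxiredoxin and dismutase genes and of the ferroptosis and iron genes lie at -0.08 and 0.20. That of the ATF4 list lies at -0.63, and its genes were known to be lower in these data when it was drawn up.

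The promoters of the members were then searched for TGACNNNGC on either strand, the core letters of the antioxidant response element; where NNN is TCA, they contain the AP-1 site TGACTCA. A promoter was in the table for 7 of the 10 members, Hmox1, Gclc and Gsr being the others. The core stood in 4 of these 7, namely Nfe2l2, Gclm, Txnrd1 and Srxn1, and in 14.0% of all genes of the table. It stood in 6 of 18 other NRF2 targets, 3 of 10 NRF2 control genes, 3 of 20 other glutathione genes and 4 of 12 genes of the ATF4 list, the same share (33.3%) on the ATF4 list as among the other NRF2 targets. It was not found in the window of Nqo1, Slc7a11 or Gpx4, which says only that these letters are not there. The matches are shown so that the letters found can be read; each line gives the gene's strand 5′ to 3′ with the match in capitals, a match on the opposite strand reading as the reverse complement:
Nfe2l2: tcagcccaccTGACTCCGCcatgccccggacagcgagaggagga
Gclm: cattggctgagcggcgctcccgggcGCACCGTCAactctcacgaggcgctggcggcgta
Txnrd1: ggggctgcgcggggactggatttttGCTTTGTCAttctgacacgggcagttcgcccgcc
Srxn1: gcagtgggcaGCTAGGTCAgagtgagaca
They lie at chr2:75704870-75704913 (minus strand), chr3:122245398-122245456, chr10:82859089-82859147 and chr2:152105542-152105570 (plus strand, all GRCm38.p6). The Nfe2l2, Gclm and Txnrd1 matches lie before the start, the last of these at the second of 3 starts in the table, and the Srxn1 match begins 28 bases past it. These 4 members had log2 ratios of 0.07, 0.12, -0.25 and 0.03, all within the 1.2-fold lines. Whether the core has a part in these values was not tested.

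The cultures were read against marker lists as a check of the label. The summed level of the 5 neuron markers was 1686 FPKM in the non-silencing value and 1799 with knockdown, the highest being Tubb3 at 838.9 and 878.7 FPKM. The summed levels of oligodendrocyte lineage markers were 53.0 and 50.2 FPKM (highest Olig2), with a median log2 ratio of -0.17. Of these 4 markers, 2 were lower past 1.2-fold, against 8.92% of tested loci. Summed levels were 82.9 and 79.0 FPKM for the 2 placed of 4 neural progenitor markers (highest Hes5). The 1 placed interneuron marker, Gad2, was at 2.49 and 2.18 FPKM. The 6 fibroblast and mural cell markers summed to 3.99 and 6.11 FPKM. The highest of them, Dcn, was at 1.55 and 1.56 FPKM. Of the 5 tested, 3 were higher past 1.5-fold, against 2.07% of tested loci. These were Col1a1 (0.125 and 0.975 FPKM), Col3a1 (0.171 and 0.765 FPKM) and Acta2 (0.409 and 1.28 FPKM), all at low levels. Placed microglia markers (5 of 6, highest Aif1) summed to 0.294 and 0.538 FPKM, and endothelial markers (4 of 4, highest Pecam1) to 0.109 and 0.266 FPKM, with none tested.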

How the data were processed

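Total RNA was sequenced as 50 bp single-end reads. Per the submitters' processing notes and the study's methods, reads were mapped to mm10 with TopHat, assembled with Cufflinks and compared with Cuffdiff (the sources used here do not give versions). The values used are the FPKM that the authors deposited, 1 per condition and locus, normalized for transcript length and library size. The deposited fold change, test statistic, p-value, q-value and significance columns hold the authors' own comparison. Of these, only the fold change was used, to restore altered cells. A spreadsheet had turned many FPKM cells into times, and the numbers were restored as those whose log2 ratio matched the deposited log2 fold change within 2e-05. For restored loci, the log2 ratio is therefore the deposited one by construction. Of 13498 tested loci, 8593 needed no change, 4858 were restored (among members Gclc, Gclm and Gsr) and 47 were left without values. Among the loci with values, 84 had 1 value at 0. In simulated altered cells, 99.5% of 6612 loci came back right and 0 wrong. These cells covered a limited range of levels and were altered by the rule that the restoring step assumes, so the rule itself was not tested.

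Loci were placed on GENCODE M21 and RefSeq spans, and the entry with the highest mean FPKM stood for a gene. Log2 ratios are of knockdown over non-silencing FPKM with no pseudocount. The members and lists were chosen with earlier results of these data known. Named genes are all members, Neurod2, Keap1, Bach1, Slc3a2 and Chac1, and in each list genes past 1.5-fold and the 3 of highest FPKM; other names are marked. Marker lists give counts, sums and the highest marker. The study's methods give 5 days in vitro where the labels give 4. Python 3.11.15, pandas 2.3.3 and numpy 2.4.6 were used.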

Additional observations from a re-analysis of the deposited data

How the results depend on the processing

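No paired analysis was possible because the table holds 1 pooled value per condition, and for the same reason no replicate could be left out. Adding 0.1 or 1 FPKM to both values, centring on the median of tested loci or requiring a mean of 1 FPKM left the counts of members past either fold as they were. With an overlap of 0.8 of the union, or with GENCODE spans only (chosen after seeing the data), Slc7a11 was no longer placed and 0 members were lower past 1.2-fold. With 1 FPKM added, 1.52% and 0.943% of background loci were lower and higher past 1.5-fold, and 5.87% and 4.13% past 1.2-fold. With a mean of 1 FPKM or more, 1.33% were higher past 1.5-fold. Over loci of any status, 8.12% were lower and 8.2% higher past 1.5-fold, and 15.9% and 15.5% past 1.2-fold; the cause was not tested. The median log2 ratio of the members, 0.02 as reported, was -0.17 over members whose cells were still numbers, a setting that leaves out Gclc, Gclm and Gsr, and -0.08 without loci that hold a small RNA gene, a setting that leaves out Nfe2l2 and Gsr. With loci whose cells were still numbers, fewer genes were left: 0 of the other glutathione genes and 5 of the ATF4 genes were lower past 1.5-fold. The share of tested loci was 2.84% in that setting. Past 1.2-fold, 8 of the ATF4 genes left were lower and 0 higher, against 9.74% and 8.8% of tested loci. Without loci that hold a small RNA gene (chosen after seeing the data), Tkt was left out and 0 of the other NRF2 targets were lower past 1.5-fold. With a final A added to the antioxidant response element core, 1 of the 7 members with a promoter held it, namely Txnrd1. Over all genes of the promoter table the share was 3.45%. Depth is unknown, so the counting error of low genes such as Nfe2l2, Hmox1 and Slc7a11 cannot be given.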
